A study of Homo sapiens with 6 samples.

Results

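Oxidative phosphorylation is the last stage of respiration, and 82 gene symbols of its machinery were followed across sorted cells of 3 human breast cancer lines. The symbols were taken by name from transcript clusters that carry exactly 1 symbol: those starting with NDUFA, NDUFB, NDUFC, NDUFS, NDUFV, UQCR, COX4 to COX8 or ATP5, and the SDH subunits, without the NDUFAF assembly factors. They are 82 of 18417 symbols on such clusters. Of these, 78 encode subunits or bound factors of the complexes: 34 of complex I, 3 of complex II, 7 of complex III, 17 of complex IV and 17 of complex V. The remaining 4 are a transcript that starts beside NDUFV1 on the other strand (NDUFV1-DT), the relatives of subunit genes UQCRBP1 and ATP5F1EP2, and ATP5MGL. SDHB, UQCRFS1 and the subunits encoded by mitochondrial DNA are not analysed here, and 9 clusters whose annotation joins a subunit to another symbol were left out, among them those of NDUFS5, NDUFC2 and ATP5F1E.

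231BrM-2a is a derivative of MDA-MB-231 selected for growth in brain, 231BoM-1833 is a derivative selected for growth in bone, and MDA-MB-231 is the parental line, a triple-negative breast cancer line of mesenchymal character. Each line gave 2 arrays, 6 in all (Affymetrix Human Gene ST, from 100 ng of total RNA), labelled as biological replicates. All 3 were grown in the same medium with serum, and the labels name no drug. In all 3 lines the cells had been kept by magnetic sorting for the absence of CD24 and the presence of CD44 and ESA, the product of EPCAM, a set of surface markers used to enrich breast cancer stem cells. Every group carries this selection, and no unsorted cells are compared. Each metastatic derivative is represented by 1 line, so what is particular to that line and what goes with its organ of selection cannot be told apart. The labels do not say whether these came from separate cultures, so a p-value here rests on differences between arrays of 1 line that may be technical.

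The inner mitochondrial membrane carries the respiratory chain. Complex I takes electrons from NADH and complex II takes them from succinate, complex III passes them from ubiquinol to cytochrome c, and complex IV gives them to oxygen. Complexes I, III and IV pump protons, and complex V, the ATP synthase, uses the resulting gradient to make ATP. Most subunits are encoded in the nucleus, imported and assembled with those made inside the mitochondrion, and several factors, among them NRF1, the ETS factor GABPA and YY1, are known to act at promoters of such genes. Breast cancer cells use respiration and glycolysis side by side.

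The promoter sequences of the subunits that the results below turn on most are shown here first, because short letters known from these factors recur at the starts of such genes. They are RefSeq sequences on GRCh38.p14, printed 5′ to 3′ on the strand of the gene, with the matched letters in capitals. UQCRC1, UQCRC2, ATP5PO and ATP5PB were lower in the bone-selected line than in both others and carry AAGATGG, the letters of a YY1 site, or its reverse complement CCATCTT. Counted from the annotated start, these letters begin after it in UQCRC1 (position 24), UQCRC2 (9) and ATP5PO (39). In ATP5PB they begin at -1. Of the 5 genes that were higher in the brain-selected line than in both others, NDUFA8 carries the palindromic letters of an NRF1 site, in capitals in its window, and COX8A carries ACTTCCGG, the reverse complement of the ETS letters CCGGAAGT. The other members of that group, NDUFA11, NDUFB2 and COX7A2, have no match to the NRF1, ETS or YY1 letters in their windows. The windows lie at chr3:48609607-48609633 (minus strand), chr16:21953359-21953385 (plus), chr21:33915755-33915776 (minus), chr1:111449453-111449479 (plus), chr9:122159764-122159793 (minus) and chr11:63974591-63974618 (plus), in the order shown.
UQCRC1: ctgcagctggAAGATGGcggcgtccgt
UQCRC2: gcctccgccaCCATCTTgctttccttt
ATP5PO: cgcccgggagAAGATGGctgcc
ATP5PB: ttgtgagcggCCATCTTggtcctgccc
NDUFA8: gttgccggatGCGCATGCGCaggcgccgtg
COX8A: cagctccagaACTTCCGGccagcgcagc

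The 200 bases before the annotated start are shown for the lower member of complex III with the largest change (UQCRC1, chr3:48609647-48609846, minus strand) and for its partner UQCRC2 (chr16:21953161-21953360, plus strand). They are also shown for 2 complex IV subunits, COX7B (chrX:77899268-77899467, plus strand) and COX8A (chr11:63974420-63974619, plus strand). COX7A2 and COX7B2 of that complex changed by more than COX8A in the brain-selected line against the parental line and are not shown. Capitals mark the ETS letters, CCAAT and TATAAA, each on either strand. In COX7B matches of TATAAA on both strands overlap and print as 1 run of capitals. UQCRC1 has no match to any of the 5 motifs in this stretch.
UQCRC1: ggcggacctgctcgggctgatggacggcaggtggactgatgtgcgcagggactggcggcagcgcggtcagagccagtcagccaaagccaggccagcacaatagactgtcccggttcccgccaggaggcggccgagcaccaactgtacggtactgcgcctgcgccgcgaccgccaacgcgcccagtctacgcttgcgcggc
UQCRC2: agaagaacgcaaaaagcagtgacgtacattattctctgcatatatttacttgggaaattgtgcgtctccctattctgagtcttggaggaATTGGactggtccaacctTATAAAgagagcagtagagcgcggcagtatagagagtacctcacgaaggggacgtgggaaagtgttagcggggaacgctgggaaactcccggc
COX7B: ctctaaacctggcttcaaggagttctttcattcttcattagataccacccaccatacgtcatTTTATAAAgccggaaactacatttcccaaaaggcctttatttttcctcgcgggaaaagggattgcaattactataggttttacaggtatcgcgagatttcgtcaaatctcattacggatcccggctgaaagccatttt
COX8A: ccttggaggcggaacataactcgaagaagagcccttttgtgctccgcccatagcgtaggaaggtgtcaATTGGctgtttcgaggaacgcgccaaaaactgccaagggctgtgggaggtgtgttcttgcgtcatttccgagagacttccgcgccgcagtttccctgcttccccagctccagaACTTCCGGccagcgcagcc

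Over the 67 subunit genes with a promoter in that table, the YY1 letters were in the 300 bases around the start (250 before, 50 after) of 15, which is 22.4%, against 5.84% of all 35116 promoters. The ETS letters were in 10 (14.9%, against 4.14% of all) and the NRF1 letters in 4 (5.97%, against 1.24%). CCAAT was in 24 (35.8%, against 34.6%) and TATAAA in 7 (10.4%, against 11.5%). In the 250 bases before the start alone, the YY1 letters were in only 4 of the 67 (5.97%, against 3.7% of all). The ETS letters were in 10 there (14.9%, against 3.42%) and the NRF1 letters in 3 (4.48%, against 1.03%). Both strands were searched for each motif. Of the 15 genes with the YY1 letters, 4 were called lower and 2 higher in 231BoM-1833 against MDA-MB-231, and of the 52 without them 5 were called lower and 3 higher. The median log2 changes of these groups in that comparison were 0.06 with the letters and 0.08 without. NDUFB1, the remaining member that was low in the bone-selected line alone, has no YY1 match. The motifs and the sequences shown were chosen after the values had been seen, and a match is a description of letters and not of binding.

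Levels are log2 values from the deposited array table, and a difference is a difference of line means on that scale. The array medians lay between 6.58 and 6.64, replicates correlated at 0.9935 to 0.9959 across clusters and arrays of different lines at 0.9666 to 0.9832. CD44 lay between 11.45 and 12.17 and CD24 between 5.76 and 6.49, but the level at which a cluster is not expressed is not known here. EPCAM, a marker of the sort, had 8.15 and 8.23 in 231BrM-2a, 8.32 and 7.28 in 231BoM-1833, and 8.13 and 7.93 in MDA-MB-231. The sort marker CD44 was lower in 231BrM-2a than in 231BoM-1833 by 0.54 (adjusted p = 0.014). It missed the threshold with either 231BrM-2a array left out (0.074 for replicate 1, 0.0704 for replicate 2), and also with replicate 1 of 231BoM-1833 left out (0.0565). VIM, a mesenchymal filament gene, was lower by 0.59 (adjusted p = 0.00256). Of the markers of other cell types, the 5 leukocyte genes measured gave 1 call (CD68, lower in 231BrM-2a than in 231BoM-1833 by 0.63) and the 4 muscle genes gave 0 calls in all 3 comparisons by limma, with 0 also at an unadjusted p under 0.05 and with trend and robust options. The 2 bone markers gave 0 calls in all 3 comparisons by limma (1, 0 and 1 at an unadjusted p under 0.05 in 231BoM-1833 against MDA-MB-231, 231BrM-2a against MDA-MB-231 and 231BrM-2a against 231BoM-1833, and 0 with trend and robust options). The endothelial gene PECAM1 was lower in 231BrM-2a than in MDA-MB-231 by 0.38 (adjusted p = 0.0382, lost without any 1 of their 4 arrays, up to 0.215). Of 4 brain markers, RBFOX3 was higher in 231BrM-2a than in MDA-MB-231 by 0.94, and MBP was lower by 0.58, a call lost without 231BrM-2a replicate 1 (adjusted p = 0.0748) or MDA-MB-231 replicate 2 (0.0705). The part of any other cell type in the results was not tested.

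Against the parental line, more subunit genes were higher than lower in the brain-selected line. Of the 82 members, 17 passed the test in 231BrM-2a against MDA-MB-231, with 15 higher (18.3%) and 2 lower (2.44%). Over all 21214 named clusters 19.0% passed, 10.5% higher and 8.59% lower, so the members' total of 20.7% lay near the background while the split between directions was more one-sided. The median change was 0.13 for the members and -0.05 for all named clusters. By array, the 78 subunit genes deviated from their own means over the 6 arrays by a median of 0.023 and 0.125 in 231BrM-2a. These medians were 0.02 and -0.071 in 231BoM-1833, and -0.045 and -0.091 in MDA-MB-231. Replicate 1 of 231BrM-2a thus lay near replicate 1 of 231BoM-1833. The 15 higher genes were NDUFA3, NDUFA7, NDUFA8, NDUFA11, NDUFB2, NDUFB3, NDUFB5 and NDUFB11 of complex I, SDHC of complex II, COX7A2, COX7B and COX8A of complex IV, and ATP5MC3, ATP5MG and ATP5MJ of complex V. The 2 lower genes, COX4I1 and COX7B2, both belong to complex IV. Of the 82 members 30 had an unadjusted p under 0.05, and the trend and robust options of limma called 20. A call was kept whichever array was left out for 6 of the 17 (NDUFA8, NDUFA11, NDUFB3, COX7A2, COX8A and COX7B2). Leaving out 231BrM-2a replicate 1 cost 4 calls (adjusted p up to 0.246), 231BrM-2a replicate 2 cost 11 (up to 0.274), MDA-MB-231 replicate 1 cost 7 (up to 0.15) and MDA-MB-231 replicate 2 cost 11 (up to 0.222).

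In the bone-selected line the calls ran in both directions. In 231BoM-1833 against MDA-MB-231, 15 of the 82 members passed (18.3%), 6 higher (7.32%) and 9 lower (11.0%). Over all named clusters 15.8% passed, 8.43% higher and 7.38% lower, so the members stood near the background in each direction. The median change was 0.06 for the members and -0.05 for all clusters. NDUFA3, NDUFB5, NDUFC1, COX7B, COX7C and ATP5MC2 rose, and NDUFB1, NDUFB10, UQCRC1, UQCRC2, COX4I1, COX6A2, COX7B2, ATP5PB and ATP5PO fell. Only COX7B and COX7B2 kept the call whichever of the 6 arrays was left out. The calls lost numbered 4 without 231BoM-1833 replicate 1 (adjusted p up to 0.109), 7 without 231BoM-1833 replicate 2 (up to 0.131), 11 without MDA-MB-231 replicate 1 (up to 0.118), 13 without MDA-MB-231 replicate 2 (up to 0.254) and 4 without either 231BrM-2a array (up to 0.0696), which enters through the shared estimate of the spread.

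Between the derivatives, 20 of the 82 members passed (24.4%), 16 higher in 231BrM-2a than in 231BoM-1833 (19.5%) and 4 lower (4.88%). Over all named clusters 23.5% passed, 12.5% higher and 11.0% lower, so here too the total lay near the background and the higher direction took the larger part. The median change was 0.09 for the members and 0.01 for all clusters. Higher were NDUFA2, NDUFA5, NDUFA8, NDUFA11, NDUFB1, NDUFB2, NDUFV1, SDHA, UQCRC1, UQCRC2, COX5A, COX7A2, COX8A, ATP5MF, ATP5PB and ATP5PO, and lower were NDUFA1, NDUFC1, UQCRH and ATP5MC2. NDUFA1, NDUFA11 and UQCRC1 kept the call whichever array was left out. The others were lost in part: 7 without 231BrM-2a replicate 1 (adjusted p up to 0.241), 14 without 231BrM-2a replicate 2 (up to 0.285), 6 without 231BoM-1833 replicate 1 (up to 0.142), 10 without 231BoM-1833 replicate 2 (up to 0.15) and 4 without either MDA-MB-231 array (up to 0.0765). Every pair of comparisons shares the arrays of 1 line, so these lists are not independent of each other.

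**Figure D1:**
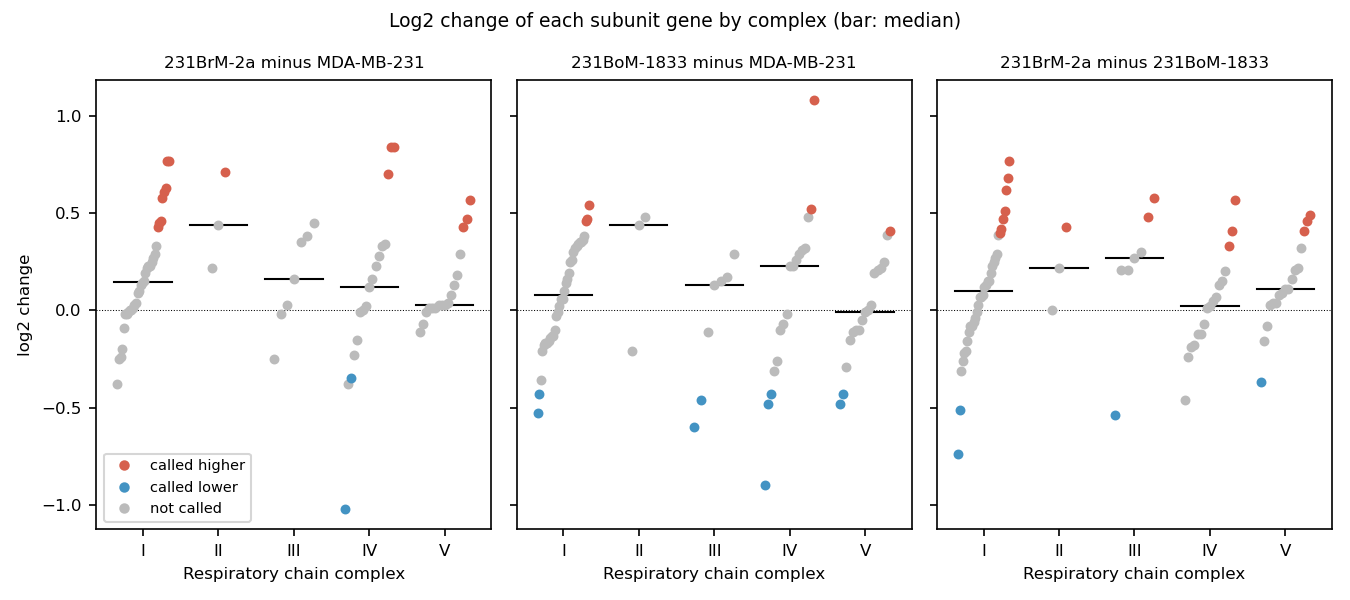
Log2 change of each of the 78 subunit genes (vertical axis) by respiratory chain complex (horizontal axis) in the 3 comparisons. Each point is 1 gene, coloured where its limma adjusted p is under 0.05, and each bar is the median of a complex. The 15 genes called higher in 231BrM-2a against MDA-MB-231 lie in complexes I, II, IV and V, and the 9 called lower in 231BoM-1833 lie in complexes I, III, IV and V.

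In all, 35 of the 82 members were called in at least 1 comparison and 47 in none. The 4 genes outside the complexes gave 0 calls in each comparison by limma, with 1, 1 and 0 at an unadjusted p under 0.05 in 231BrM-2a against MDA-MB-231, 231BoM-1833 against MDA-MB-231 and 231BrM-2a against 231BoM-1833, and the trend and robust options called 1, 0 and 0. Called higher in both derivatives against MDA-MB-231 were 3 (COX7B, NDUFA3 and NDUFB5), and called lower in both were 2 (COX4I1 and COX7B2), with the MDA-MB-231 arrays common to both comparisons. Called higher in 231BrM-2a against each of the other lines were 5 (NDUFA8, NDUFA11, NDUFB2, COX7A2 and COX8A). Called lower in 231BoM-1833 against MDA-MB-231 and higher in 231BrM-2a against 231BoM-1833 were 5 others (NDUFB1, UQCRC1, UQCRC2, ATP5PB and ATP5PO). Called higher in 231BoM-1833 against MDA-MB-231 and lower in 231BrM-2a against 231BoM-1833 were 2 (NDUFC1 and ATP5MC2).

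**Figure D2:**
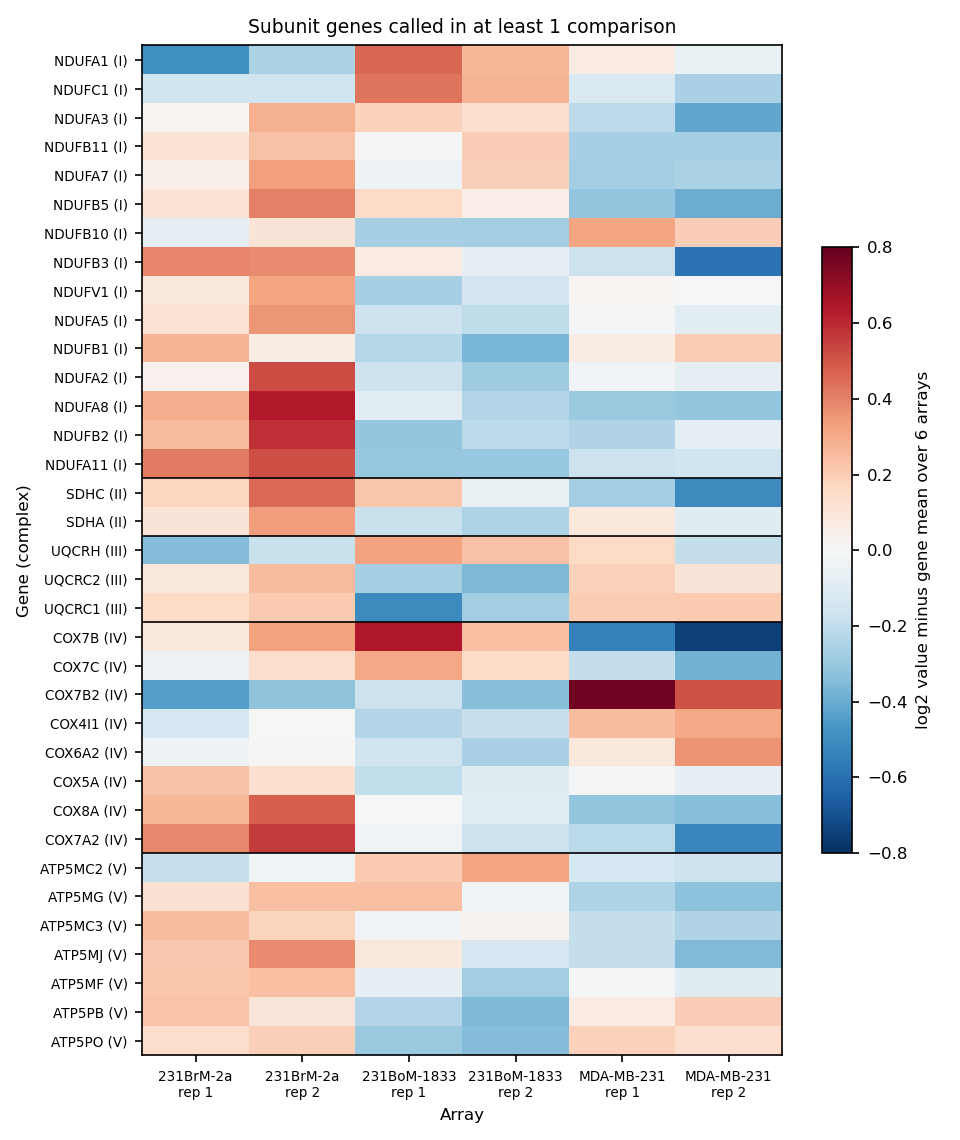
Log2 value of the 35 members called in at least 1 comparison, less the gene's mean over the 6 arrays (colour), by array (columns) and gene with its complex (rows). UQCRC1, UQCRC2, ATP5PB, ATP5PO and NDUFB1 are below their mean on both 231BoM-1833 arrays, and NDUFA11, NDUFB2, NDUFA8, COX8A and COX7A2 are above it on both 231BrM-2a arrays.

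Complex I, the NADH dehydrogenase, has the most subunits and gave the largest number of calls. Of its 34 genes, 8 were higher and 0 lower in 231BrM-2a against MDA-MB-231, 3 were higher and 2 lower in 231BoM-1833 against MDA-MB-231, and 7 were higher and 2 lower in 231BrM-2a against 231BoM-1833. In that order 23.5%, 14.7% and 26.5% were called, near the 19.0%, 15.8% and 23.5% of all named clusters. The median changes were 0.14, 0.08 and 0.10 in the same order. NDUFA11, a membrane-spanning accessory subunit, had 9.37 and 9.47 in 231BrM-2a, 8.65 on both arrays of 231BoM-1833, and 8.78 and 8.79 in MDA-MB-231. Both brain-line arrays lay above all others, and the bone line lay a little below the parental one. The change was 0.63 ± 0.10 (SE) against MDA-MB-231, a 1.55-fold difference (limma adjusted p = 0.0029), and 0.77 ± 0.10 against 231BoM-1833, 1.70-fold (adjusted p = 0.000704). Against MDA-MB-231 the bone line differed by -0.14 (adjusted p = 0.395).

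NDUFA8, a cysteine-rich subunit on the intermembrane-space face whose promoter window is shown above, had 9.22 and 9.56 in 231BrM-2a, 8.84 and 8.69 in 231BoM-1833, and 8.63 and 8.62 in MDA-MB-231. The brain-line arrays did not overlap the others, though they differed from each other by more than the bone and parental lines did in their means. The changes of the brain line were 0.77 ± 0.13 against MDA-MB-231 (adjusted p = 0.00418) and 0.62 ± 0.13 against 231BoM-1833 (adjusted p = 0.00872), and without 231BrM-2a replicate 2 the second was lost (0.0751), as were NDUFB2 and 4 other complex I calls in that comparison (0.0547 to 0.285). NDUFB2, a small subunit of the membrane arm, had 8.69 and 9.02 in 231BrM-2a, 8.13 and 8.23 in 231BoM-1833, and 8.20 and 8.36 in MDA-MB-231. It was higher in the brain line by 0.58 ± 0.13 against MDA-MB-231 (adjusted p = 0.0164) and by 0.68 ± 0.13 against 231BoM-1833 (adjusted p = 0.00598). NDUFB3, another membrane-arm subunit, had 7.78 and 7.77 in 231BrM-2a, 7.46 and 7.32 in 231BoM-1833, and 7.22 and 6.80 in MDA-MB-231. The lines stood in that order without overlap, and the change of 0.77 ± 0.14 in 231BrM-2a against MDA-MB-231 passed (adjusted p = 0.00616), while 0.38 in 231BoM-1833 did not (adjusted p = 0.104).

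NDUFA3 and NDUFB5 were higher in both derivatives than in MDA-MB-231. NDUFB5, a membrane-arm subunit, had 10.58 and 10.87 in 231BrM-2a, 10.62 and 10.52 in 231BoM-1833, and 10.15 and 10.07 in MDA-MB-231. The derivatives overlapped each other and lay above the parental line, by 0.61 ± 0.12 (adjusted p = 0.00904) in 231BrM-2a and 0.46 ± 0.12 (adjusted p = 0.0362) in 231BoM-1833. For NDUFA3, a single-span membrane subunit, those changes were 0.46 and 0.47 (adjusted p = 0.0336 and 0.0368). NDUFB11 and NDUFA7 rose in 231BrM-2a by 0.43 and 0.45 (adjusted p = 0.0284 and 0.0433), with 0.35 and 0.33 in 231BoM-1833 that did not pass (adjusted p = 0.0659 and 0.116). Of the 8 brain-line calls in complex I, these 4 and NDUFB2 were lost without 231BrM-2a replicate 2 (adjusted p = 0.083 to 0.274) or MDA-MB-231 replicate 2 (0.0544 to 0.217). All but NDUFB5 of them were lost without MDA-MB-231 replicate 1 (0.0561 to 0.15), and NDUFB11 without 231BrM-2a replicate 1 (0.0732).

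NDUFA1 and NDUFC1, small membrane-arm subunits, went against this pattern. NDUFA1, an X-linked subunit needed for assembly of the complex, had 9.33 and 9.57 in 231BrM-2a, 10.28 and 10.09 in 231BoM-1833, and 9.89 and 9.77 in MDA-MB-231. The parental line lay between the derivatives with no overlap. The brain line was lower than the bone line by 0.74 ± 0.13 (95% interval of the change -1.02 to -0.45, adjusted p = 0.00279), while neither differed from MDA-MB-231 past the threshold (-0.38 with adjusted p = 0.0645 in 231BrM-2a, 0.36 with adjusted p = 0.0859 in 231BoM-1833). NDUFC1 had 9.36 on both arrays of 231BrM-2a, 9.95 and 9.79 in 231BoM-1833, and 9.40 and 9.26 in MDA-MB-231. It was higher in the bone line alone, by 0.54 ± 0.11 against MDA-MB-231 (adjusted p = 0.0134), a call lost without MDA-MB-231 replicate 2 (0.108). In 231BrM-2a it was below 231BoM-1833 by 0.51 ± 0.11 (adjusted p = 0.00963), lost without either 231BrM-2a array (0.0572 and 0.0591).

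NDUFB10 and NDUFB1 were lower in 231BoM-1833. NDUFB10, a membrane-arm subunit on the intermembrane-space side, had 8.56 and 8.74 in 231BrM-2a, 8.37 and 8.36 in 231BoM-1833, and 8.95 and 8.83 in MDA-MB-231. The bone line fell by 0.53 ± 0.11 against MDA-MB-231 (adjusted p = 0.0141), and the brain line stood between them. NDUFB1, a single-span membrane subunit, had 8.57 and 8.36 in 231BrM-2a, 8.07 and 7.93 in 231BoM-1833, and 8.36 and 8.50 in MDA-MB-231. Brain and parental arrays overlapped, and the bone line lay below both, by -0.43 ± 0.12 against MDA-MB-231 (adjusted p = 0.0401) and with 231BrM-2a higher than it by 0.47 ± 0.12 (adjusted p = 0.0199). None of the 5 bone-line calls in complex I was kept in all fits with 1 array left out. They were lost without MDA-MB-231 replicate 2 (5 calls, adjusted p up to 0.22), MDA-MB-231 replicate 1 (4, up to 0.104), 231BoM-1833 replicate 2 (3, up to 0.131), 231BoM-1833 replicate 1 (2, up to 0.109) and each 231BrM-2a array (NDUFB1, 0.0528).

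The core subunits of the peripheral arm, which carry the flavin and iron-sulfur clusters, gave 1 call in the 3 comparisons. Of the 6 measured, 0 passed against MDA-MB-231 in either derivative by limma, where 0 in 231BrM-2a and 3 in 231BoM-1833 had an unadjusted p under 0.05 and trend and robust options called 0. NDUFV1, which binds NADH, had 10.93 and 11.16 in 231BrM-2a, 10.58 and 10.70 in 231BoM-1833, and 10.86 and 10.85 in MDA-MB-231. It was higher in the brain line than in the bone line by 0.40 ± 0.12 (adjusted p = 0.0343). NDUFA5 and NDUFA2, accessory subunits of the same peripheral arm, were likewise higher between the derivatives, by 0.42 and 0.51 (adjusted p = 0.0258 and 0.043). NDUFA2 rested on 231BrM-2a replicate 2, at 8.74, against 8.25 in replicate 1, 8.05 and 7.93 in 231BoM-1833 and 8.19 and 8.14 in MDA-MB-231. NDUFV1 and NDUFA2 were lost without either MDA-MB-231 array (adjusted p = 0.0589 to 0.0711), and NDUFV1, NDUFA2 and NDUFA5 without 231BrM-2a replicate 2 (up to 0.285) or 231BoM-1833 replicate 1 (up to 0.117). NDUFA2 and NDUFA5 were also lost without 231BoM-1833 replicate 2 (up to 0.15).

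By the place of a subunit in the complex, 7 of the 18 accessory subunits of the membrane arm, 1 of the 9 accessory subunits of the peripheral arm and 0 of the 6 core subunits were called higher in 231BrM-2a against MDA-MB-231. These are 38.9%, 11.1% and 0.0%, against 10.5% of all named clusters. That division was made after the values had been seen and was given no test, and the medians of these groups were 0.10, 0.23 and 0.17, so the groups do not stand in the order of their counts. The acyl carrier NDUFAB1, which belongs to both arms, changed by 0.14 (adjusted p = 0.424).

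Complex II, succinate dehydrogenase, also belongs to the citric acid cycle and is encoded wholly in the nucleus. SDHC, a membrane anchor, had 10.24 and 10.52 in 231BrM-2a, 10.29 and 10.01 in 231BoM-1833, and 9.79 and 9.56 in MDA-MB-231. The derivatives overlapped and both lay above the parental line, by 0.71 ± 0.15 in 231BrM-2a (adjusted p = 0.00964) and by 0.48 ± 0.15 in 231BoM-1833 (adjusted p = 0.0542, 95% interval 0.15 to 0.81). A second SDHC cluster changed by 0.57 (adjusted p = 0.0139) and 0.23 (adjusted p = 0.238). SDHD, the other anchor, had 10.89 and 11.24 in 231BrM-2a, 11.14 and 10.99 in 231BoM-1833, and 10.74 and 10.50 in MDA-MB-231, which is 0.44 above MDA-MB-231 in each derivative (adjusted p = 0.0636 and 0.0686). Its second cluster gave 0.23 and 0.34 (adjusted p = 0.326 and 0.16). SDHA, the flavoprotein that oxidises succinate, had 11.50 and 11.73 in 231BrM-2a, 11.22 and 11.15 in 231BoM-1833, and 11.48 and 11.30 in MDA-MB-231. The bone line was lowest and the brain line highest with no overlap, and the difference of 0.43 ± 0.12 between the derivatives passed (adjusted p = 0.0315), while 0.22 in 231BrM-2a and -0.21 in 231BoM-1833 against MDA-MB-231 did not (adjusted p = 0.241 and 0.277). Which of a symbol's clusters lies at the gene itself is not known here, so the values of SDHC and SDHD, and those of NDUFV2, ATP5MK, COX6A1, NDUFS4 and NDUFB4, may include a near-identical copy, which was not tested. The SDHC call was lost without 231BrM-2a replicate 2 (0.0858) or MDA-MB-231 replicate 2 (0.09), and the SDHA call without 231BrM-2a replicate 2 (0.216), 231BoM-1833 replicate 1 (0.0572) or 231BoM-1833 replicate 2 (0.106).

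In complex III, the cytochrome bc1 complex, both core proteins were lower in the bone-selected line than in the other lines. UQCRC1 and UQCRC2 form the large matrix-facing part and belong to the family of processing peptidases. UQCRC1 had 9.95 and 10.00 in 231BrM-2a, 9.28 and 9.51 in 231BoM-1833, and 9.99 and 10.00 in MDA-MB-231. UQCRC2 had 11.12 and 11.29 in 231BrM-2a, 10.77 and 10.68 in 231BoM-1833, and 11.22 and 11.14 in MDA-MB-231. In both genes the brain and parental arrays overlapped and both bone arrays lay below all 4. Against MDA-MB-231 the bone line fell by 0.60 ± 0.11 in UQCRC1, a 1.52-fold difference (adjusted p = 0.00955), and by 0.46 ± 0.11 in UQCRC2, 1.37-fold (adjusted p = 0.0239). 231BrM-2a was higher than 231BoM-1833 by 0.58 ± 0.11 (adjusted p = 0.00551) and 0.48 ± 0.11 (adjusted p = 0.0118). Against MDA-MB-231 the brain line differed by -0.02 (95% interval -0.27 to 0.24) and 0.03 (-0.22 to 0.27).

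**Figure D3:**
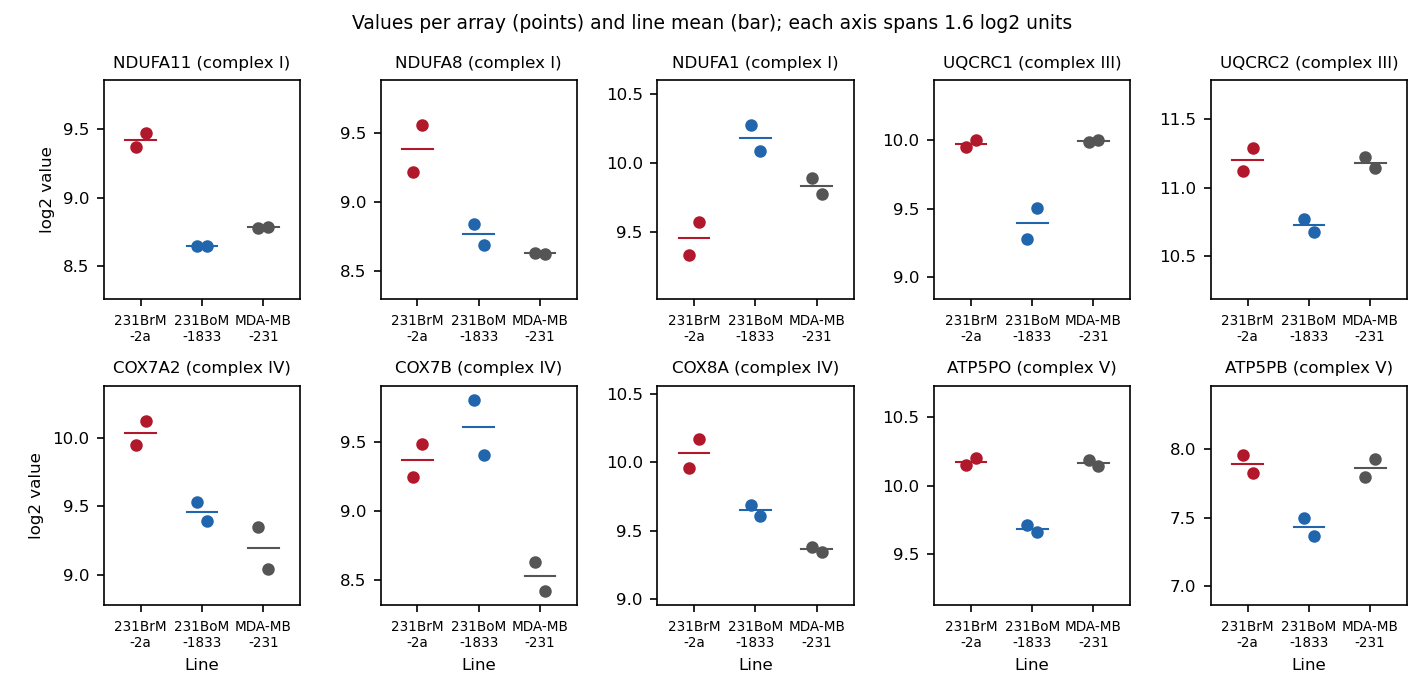
Log2 value on each array (points) and line mean (bar) for 10 members, chosen after their values were seen, with the 3 lines on the horizontal axis and each vertical axis spanning the same range. In UQCRC1, UQCRC2, ATP5PO and ATP5PB both 231BoM-1833 arrays lie below the others, in NDUFA11, NDUFA8, COX7A2 and COX8A both 231BrM-2a arrays lie above the others, and in COX7B both MDA-MB-231 arrays lie lowest.

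The 5 small subunits of complex III gave 1 call in the 3 comparisons. UQCRH, the hinge protein between cytochrome c1 and cytochrome c, had 7.28 and 7.45 in 231BrM-2a, 7.95 and 7.86 in 231BoM-1833, and 7.79 and 7.44 in MDA-MB-231, and was lower in the brain line than in the bone line by 0.54 ± 0.13 (adjusted p = 0.0186). UQCRB, UQCR10, UQCRQ and UQCR11 were 0.45, 0.38, 0.35 and 0.16 above MDA-MB-231 in 231BrM-2a without passing (adjusted p = 0.0919 to 0.432). UQCRH was -0.25 from it (adjusted p = 0.233). In that comparison limma called 0 of the 7 complex III genes, with 3 at an unadjusted p under 0.05 and 0 with trend and robust options. The core protein calls against MDA-MB-231 were lost without MDA-MB-231 replicate 1 (0.0565 and 0.118 after adjustment) or MDA-MB-231 replicate 2 (0.0707 and 0.095), and that of UQCRC2 without 231BoM-1833 replicate 2 (0.0762). Between the derivatives UQCRC2 was lost without 231BrM-2a replicate 2 (0.101) and UQCRH without 231BrM-2a replicate 1 (0.125) or 231BoM-1833 replicate 1 (0.0671).

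Complex IV, cytochrome c oxidase, held the largest single changes of the set. COX7B, an X-linked subunit needed for its assembly, had 9.25 and 9.49 in 231BrM-2a, 9.81 and 9.41 in 231BoM-1833, and 8.63 and 8.42 in MDA-MB-231. The derivatives overlapped each other, and all 4 of their arrays lay above the parental ones. The change was 0.84 ± 0.16 in 231BrM-2a, 1.80-fold (adjusted p = 0.00564), and 1.08 ± 0.16 in 231BoM-1833, 2.12-fold (adjusted p = 0.00269), and between the derivatives it was -0.24 (95% interval -0.59 to 0.11, adjusted p = 0.33). The brain-line call was lost without 231BrM-2a replicate 2 (0.0533) or MDA-MB-231 replicate 2 (0.0603). COX7A2, the form of subunit 7a used in most tissues, had 9.95 and 10.12 in 231BrM-2a, 9.53 and 9.39 in 231BoM-1833, and 9.35 and 9.04 in MDA-MB-231. The lines stood in that order without overlap, with 0.84 ± 0.13 in 231BrM-2a against MDA-MB-231 (1.78-fold, adjusted p = 0.00273) and 0.26 in 231BoM-1833 (adjusted p = 0.207).

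COX8A, a small subunit at the outer side of the complex, had 9.96 and 10.17 in 231BrM-2a, 9.69 and 9.61 in 231BoM-1833, and 9.38 and 9.35 in MDA-MB-231, again in that order without overlap. It was higher in 231BrM-2a by 0.70 ± 0.11 against MDA-MB-231 (adjusted p = 0.00299) and by 0.41 ± 0.11 against 231BoM-1833 (adjusted p = 0.0273). COX7C had 9.89 and 10.08 in 231BrM-2a, 10.25 and 10.10 in 231BoM-1833, and 9.75 and 9.56 in MDA-MB-231, and passed in the bone line, at 0.52 ± 0.12 (adjusted p = 0.0218), with 0.33 in the brain line (adjusted p = 0.0932). COX5A, which faces the matrix, was higher in 231BrM-2a than in 231BoM-1833 by 0.33 (adjusted p = 0.0486). COX4I1, the usual form of the regulatory subunit 4, moved the other way, with 8.90 and 9.03 in 231BrM-2a, 8.80 and 8.85 in 231BoM-1833, and 9.28 and 9.34 in MDA-MB-231. Both derivatives lay below the parental line, by -0.35 ± 0.11 in 231BrM-2a (adjusted p = 0.0494) and -0.48 ± 0.11 in 231BoM-1833 (adjusted p = 0.0171). COX6A1 did not pass in any comparison, with -0.46 in 231BrM-2a against 231BoM-1833 (adjusted p = 0.0588). The COX4I1 call in the brain line was lost without any 1 of its 4 arrays (adjusted p up to 0.246), and that in the bone line without MDA-MB-231 replicate 1 (0.0542 to 0.0684 with COX7C) or replicate 2 (0.113 to 0.254 with COX7C and COX6A2). COX7C was also lost without 231BoM-1833 replicate 1 (0.0632 to 0.0764 with COX6A2), COX5A without any 1 of the 6 arrays (0.0664 to 0.241), and COX7A2 and COX8A between the derivatives without 231BrM-2a replicate 2 or 231BoM-1833 replicate 2 (0.0617 to 0.198).

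Several complex IV subunits have forms known from particular tissues, and 6 of these were measured. COX7B2, known from testis, had 4.34 and 4.46 in 231BrM-2a, 4.61 and 4.44 in 231BoM-1833, and 5.56 and 5.29 in MDA-MB-231, and was lower by -1.02 ± 0.13 (adjusted p = 0.000801) and -0.90 ± 0.13 (adjusted p = 0.00246) in the derivatives. Both calls were kept whichever array was left out, though whether these levels lie above background is not known. COX6A2, the heart and muscle form of subunit 6a, had 7.26 and 7.31 in 231BrM-2a, 7.14 and 7.04 in 231BoM-1833, and 7.38 and 7.66 in MDA-MB-231, and was lower in the bone line by 0.43 ± 0.12 (adjusted p = 0.0421), a call lost in 5 of the 6 fits with 1 array left out (up to 0.254). COX7A1, the muscle form of subunit 7a, COX4I2, the form of subunit 4 known from lung, and COX6B2 and COX8C, known from testis, did not pass, with changes of -0.38, -0.15, 0.00 and -0.01 in 231BrM-2a and -0.26, -0.31, -0.07 and -0.02 in 231BoM-1833 against MDA-MB-231. COX7A2L, which helps to join complexes III and IV, lay 0.12 and 0.31 above MDA-MB-231 without passing (adjusted p = 0.462 and 0.0849).

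In complex V, the ATP synthase, 2 of the 4 peripheral stalk genes fell in the bone-selected line and the c-ring gene ATP5MC2 rose. The peripheral stalk keeps the catalytic head from turning with the rotor. ATP5PO, the stalk protein that joins the head, had 10.15 and 10.20 in 231BrM-2a, 9.71 and 9.66 in 231BoM-1833, and 10.19 and 10.14 in MDA-MB-231. ATP5PB, its subunit b, had 7.96 and 7.83 in 231BrM-2a, 7.50 and 7.37 in 231BoM-1833, and 7.80 and 7.93 in MDA-MB-231. As in the core proteins of complex III, brain and parental arrays overlapped and both bone arrays lay below them. Against MDA-MB-231 the bone line fell by 0.48 ± 0.10 in ATP5PO (adjusted p = 0.0146) and by 0.43 ± 0.11 in ATP5PB (adjusted p = 0.0323), and 231BrM-2a was higher than 231BoM-1833 by 0.49 ± 0.10 (adjusted p = 0.00704) and 0.46 ± 0.11 (adjusted p = 0.0165). The other stalk genes, ATP5PD and ATP5PF, differed from MDA-MB-231 by 0.08 and 0.01 in 231BrM-2a and by -0.01 and -0.10 in 231BoM-1833, without passing.

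The catalytic head and central stalk gave 0 calls among 4 genes in all 3 comparisons by limma, with 1 unadjusted p under 0.05 in 231BoM-1833 against MDA-MB-231, 0 in the other comparisons, and 0 calls with trend and robust options. ATP5F1B, the catalytic beta subunit, had 12.81 and 12.83 in 231BrM-2a, 12.86 and 12.72 in 231BoM-1833, and 12.80 and 12.79 in MDA-MB-231. The 3 genes ATP5MC1, ATP5MC2 and ATP5MC3 encode the same mature c-ring protein with different import sequences, and each called one passed in a different comparison against MDA-MB-231. ATP5MC3 had 7.04 and 6.97 in 231BrM-2a, 6.77 and 6.82 in 231BoM-1833, and 6.60 and 6.55 in MDA-MB-231, and rose in the brain line by 0.43 ± 0.10 (adjusted p = 0.0169). ATP5MC2 had 9.33 and 9.48 in 231BrM-2a, 9.72 and 9.83 in 231BoM-1833, and 9.37 and 9.35 in MDA-MB-231, and rose in the bone line by 0.41 ± 0.11 (adjusted p = 0.0329). It was lower in 231BrM-2a than in 231BoM-1833 by 0.37 ± 0.11 (adjusted p = 0.0357). ATP5MC1 was -0.11 and -0.15 from MDA-MB-231 in 231BrM-2a and 231BoM-1833 without passing.

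Of the small membrane subunits of the synthase, which lie around the rotor and shape its dimers, ATP5MG and ATP5MJ rose in 231BrM-2a against MDA-MB-231, by 0.47 and 0.57 (adjusted p = 0.028 and 0.0117). ATP5MJ had 9.12 and 9.28 in 231BrM-2a, 8.99 and 8.77 in 231BoM-1833, and 8.71 and 8.55 in MDA-MB-231, in that order without overlap. ATP5MF was higher in 231BrM-2a than in 231BoM-1833 by 0.41 ± 0.11 (adjusted p = 0.0274), and the inhibitor ATP5IF1 changed by 0.01 and -0.10 against MDA-MB-231 in 231BrM-2a and 231BoM-1833 without passing. None of the 10 calls in complex V was kept in all fits with 1 array left out. Against MDA-MB-231 the brain-line calls were lost without 231BrM-2a replicate 1 (2 of 3, adjusted p up to 0.106), 231BrM-2a replicate 2 (3, up to 0.169), MDA-MB-231 replicate 1 (2, up to 0.0851) or replicate 2 (3, up to 0.158). The bone-line calls were lost without 231BoM-1833 replicate 2 (2 of 3, up to 0.105), MDA-MB-231 replicate 1 (3, up to 0.111), replicate 2 (3, up to 0.188) or either 231BrM-2a array (2, up to 0.0515). Between the derivatives 3 of 4 were lost without 231BrM-2a replicate 1 (up to 0.217), 231BrM-2a replicate 2 (up to 0.126) or 231BoM-1833 replicate 2 (up to 0.129), and ATP5MC2 without either MDA-MB-231 array (0.0603).

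Genes next to a subunit gene on the chromosome sometimes differed in the same direction, and their values stand here beside it. Up to 5 named genes on each side were taken from the RefSeq order, a look chosen after the values had been seen. Over all named clusters, 10.5% were called higher in 231BrM-2a against MDA-MB-231 and 8.43% in 231BoM-1833 against MDA-MB-231. In 231BrM-2a against 231BoM-1833 12.5% were called higher and 11.0% lower. Around NDUFB2 (chromosome 7) the 10 neighbours had a median change of 0.55 in 231BrM-2a against MDA-MB-231, with 6 called higher, and NDUFB2 itself had 0.58. Around NDUFB3 (chromosome 2) the median was 0.59 with 6 called higher, around COX7A2 (chromosome 6) 0.40 with 5, and around NDUFB11 (chromosome X) 0.38 with 6. Members that were not called had such neighbours too, with medians of 0.43 around NDUFV2 and 0.37 around NDUFS8 and 5 called higher around each. Around the other genes called higher in 231BrM-2a against MDA-MB-231 the medians were smaller, from -0.05 (ATP5MJ) to 0.22 (COX7B). Around COX7B (chromosome X) the neighbours had a median of 0.50 in 231BoM-1833 with 5 called higher, and 0.22 in 231BrM-2a with 5 called higher. COX4I1 (chromosome 16) fell among neighbours with medians of -0.31 in 231BrM-2a and -0.23 in 231BoM-1833. COX7B2 (chromosome 4) fell in both derivatives among neighbours with medians of -0.24 in 231BrM-2a and 0.17 in 231BoM-1833. Around NDUFB11 the median was 0.70 in 231BrM-2a against 231BoM-1833, with 8 called higher, while NDUFB11 itself had 0.08 there. Around UQCRC1, UQCRC2, ATP5PO and ATP5PB the medians in 231BoM-1833 against MDA-MB-231 were -0.18, -0.16, -0.02 and -0.12, smaller than the fall of the subunit gene. In 231BrM-2a against 231BoM-1833 the neighbours of UQCRC1 had a median of 0.41, with 5 of 10 called higher. UQCRC1 itself had 0.58 there. In 231BrM-2a against MDA-MB-231 these neighbours had a median of 0.25 with 4 called higher, while UQCRC1 was not called. Between the derivatives the median was also 0.41 around COX8A, with 5 of 10 called higher, and around SDHA, with 4 of 8. COX8A itself had 0.41 and SDHA 0.43. Against MDA-MB-231 the neighbours of COX8A had medians of 0.15 in 231BrM-2a and -0.26 in 231BoM-1833. COX8A itself lay above MDA-MB-231 in both derivatives. Those of the neighbours of SDHA were 0.04 and -0.36. For NDUFA1 (chromosome X) the median in 231BrM-2a against 231BoM-1833 was -0.36, with 6 of 10 called lower. The part of copy number in these values was not tested.

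Genes around the respiratory chain were counted in the same fit. The lists were read against the shares of all named clusters given above. Of 19 genes of the citric acid cycle and the pyruvate dehydrogenase step, which feed the chain with NADH and succinate, 9 were higher and 1 lower in 231BrM-2a against MDA-MB-231, 1 was higher and 3 lower in 231BoM-1833 against MDA-MB-231, and 9 were higher and 1 lower in 231BrM-2a against 231BoM-1833. That is 52.6%, 21.1% and 52.6% called, and the medians were 0.36, -0.02 and 0.33. IDH2, the NADP-dependent mitochondrial isocitrate dehydrogenase, had 9.64 and 9.83 in 231BrM-2a, 8.45 and 8.49 in 231BoM-1833, and 8.41 and 8.21 in MDA-MB-231, and rose in the brain line by 1.42 ± 0.12 (adjusted p = 9.43e-05). PDHA1 and PDHB, subunits of the pyruvate dehydrogenase that makes acetyl-CoA, rose there by 0.78 and 0.83 (adjusted p = 0.0011 and 0.000959), and SUCLA2, of succinyl-CoA ligase, by 0.92 (adjusted p = 0.0026). The list and its counts also hold the kinases that inhibit pyruvate dehydrogenase. Of these, PDK1 rose in the brain line by 0.66 (adjusted p = 0.00263), PDK3 by 0.62 (adjusted p = 0.00288) and PDK4 by 2.77 ± 0.42 (adjusted p = 0.00214). PDK4 had 8.52 and 10.20 on the 231BrM-2a arrays, 6.58 and 6.27 in 231BoM-1833, and 6.72 and 6.47 in MDA-MB-231, so its size depends on which brain-line array is read. Of the 10 brain-line calls against MDA-MB-231, 7 were kept whichever array was left out, all those named here. IDH3A, IDH3G and SUCLG2 were lost without MDA-MB-231 replicate 1 (0.128, 0.0836 and 0.0723 after adjustment) and in other such fits.

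The carriers that bring electrons to the chain or exchange its products were mixed. Of 16, 3 were higher and 4 lower in 231BrM-2a against MDA-MB-231. That is 43.8% called, against 19.0% of all named clusters. In 231BoM-1833 against MDA-MB-231, 1 was higher and 1 lower, or 12.5% called, against 15.8%. Between the derivatives 2 were higher and 2 lower, or 12.5% in each direction, against 12.5% higher and 11.0% lower of all named clusters. GPD2, which passes electrons from glycerol 3-phosphate to ubiquinone, rose in 231BrM-2a by 1.10 ± 0.13 (adjusted p = 0.000713), and ETFA, of the electron-transferring flavoprotein, by 0.71 ± 0.11 (adjusted p = 0.00241). Its partner ETFB had 8.15 and 8.27 in 231BrM-2a, 8.05 and 8.15 in 231BoM-1833, and 8.99 and 8.94 in MDA-MB-231, so the derivatives lay below the parental line by -0.76 (adjusted p = 0.00147) and -0.86 (adjusted p = 0.00128). The ADP/ATP carrier SLC25A5 was lower in 231BrM-2a than in 231BoM-1833 by 0.73 ± 0.11 (adjusted p = 0.0014). These calls of GPD2, ETFA, ETFB and SLC25A5 were kept whichever array was left out.

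Among 15 regulators of mitochondrial gene expression, 1 was higher and 2 lower in 231BrM-2a against MDA-MB-231. The 2 lower are 13.3% of the list, against 8.59% of all named clusters. In 231BoM-1833 against MDA-MB-231, 1 was higher and 5 lower, and the 5 are 33.3%, against 7.38%. Between the derivatives 1 was higher and 3 lower, or 26.7% called, against 23.5%. PPARGC1A, a coactivator of respiratory genes, had 5.70 and 6.07 in 231BrM-2a, 6.66 and 6.83 in 231BoM-1833, and 5.92 and 5.77 in MDA-MB-231, and rose in the bone line by 0.90 ± 0.14 (adjusted p = 0.0043), a call kept in each fit with 1 array left out. TWNK, the mitochondrial DNA helicase, fell by 0.89 in 231BrM-2a (adjusted p = 0.00152) and by 0.67 in 231BoM-1833 (adjusted p = 0.00895, lost without MDA-MB-231 replicate 1 at 0.0684). POLG, the mitochondrial DNA polymerase, rose in 231BrM-2a by 0.52 (adjusted p = 0.00853, lost without 231BrM-2a replicate 2 at 0.0722 or MDA-MB-231 replicate 2 at 0.0763). YY1 itself had 10.31 and 10.33 in 231BrM-2a, 10.17 and 10.09 in 231BoM-1833, and 10.46 and 10.51 in MDA-MB-231, a fall of 0.35 in the bone line (adjusted p = 0.0455) that was lost without any 1 array (0.0632 to 0.203). GABPA, the DNA-binding subunit of the ETS-family factor, was lower in 231BrM-2a than in 231BoM-1833 by 0.45 (adjusted p = 0.0462), a call lost without any 1 of 5 arrays (0.0724 to 0.22) and kept without 231BoM-1833 replicate 1, and it was not called against MDA-MB-231 in either derivative. NRF1 was not called in any of the 3 comparisons.

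The genes that build the complexes or their mitochondrial subunits showed no one-sided count. Of 42 assembly factors, 2 were higher and 4 lower in 231BrM-2a against MDA-MB-231, 4 higher and 2 lower in 231BoM-1833, and 5 higher and 4 lower between the derivatives. That is 14.3%, 14.3% and 21.4% called, against 19.0%, 15.8% and 23.5% of all named clusters. UQCC2, an assembly factor of complex III, rose in 231BoM-1833 by 0.83 ± 0.11 (adjusted p = 0.00177), in the line where UQCRC1 and UQCRC2 fell, and SURF1, an assembly factor of complex IV, was lower in 231BoM-1833 by 0.58 (adjusted p = 0.0132, lost without MDA-MB-231 replicate 1 at 0.0873). COA7 was lower in 231BrM-2a than in 231BoM-1833 by 0.67 (adjusted p = 0.00187). Of 72 proteins of the mitochondrial ribosome, 6 were higher and 10 lower in 231BrM-2a, 4 higher and 4 lower in 231BoM-1833, and 8 higher and 7 lower between the derivatives, or 22.2%, 11.1% and 20.8% called. MRPS33, a neighbour of NDUFB2 on chromosome 7, was higher in 231BrM-2a than in 231BoM-1833 by 1.11 ± 0.11 (adjusted p = 0.000129), and MRPS18B was lower in 231BrM-2a than in MDA-MB-231 by 0.85 ± 0.11 (adjusted p = 0.000805). The calls of UQCC2, COA7, MRPS33 and MRPS18B named here were kept whichever array was left out. Whether fewer cells with a transcript or less of it per cell lies behind a difference cannot be told apart in RNA from whole sorted populations.

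**Figure D4:**
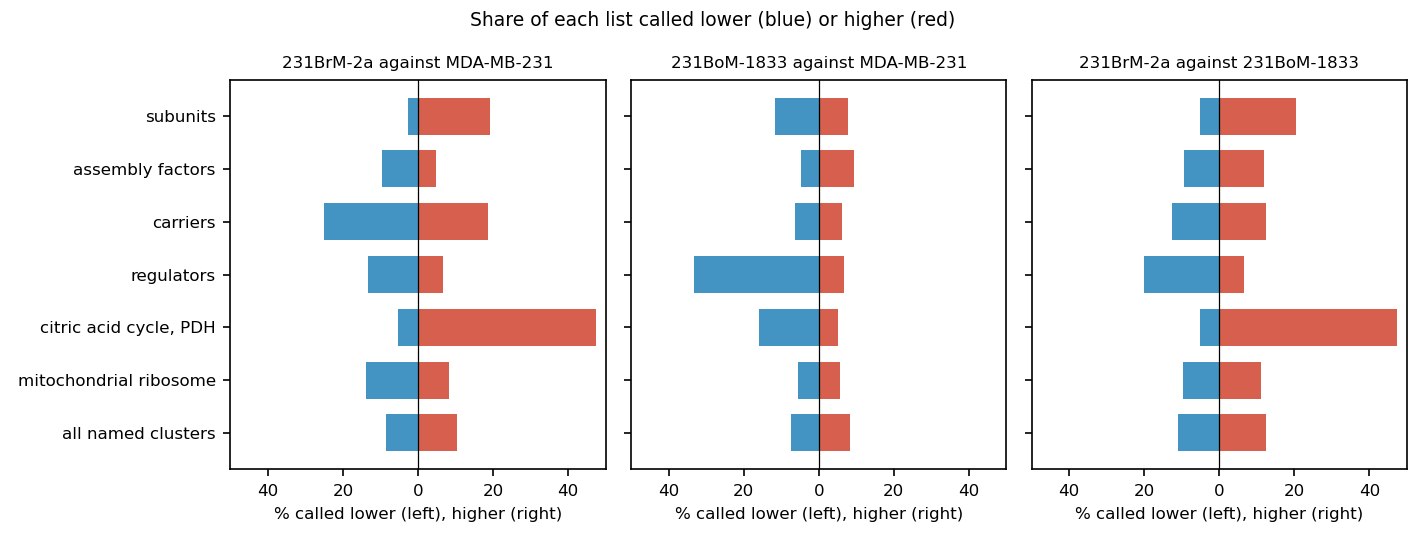
Share of each gene list called higher (red, right) or lower (blue, left) at a limma adjusted p under 0.05 in the 3 comparisons, in percent, with all named clusters as the last bar. The list of the citric acid cycle and pyruvate dehydrogenase, which includes its inhibitory kinases, has 9 of 19 genes called higher in 231BrM-2a against each other line. The subunits have 15 and 16 called higher there, of 78.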

How the data were processed

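RNA from CD24-/CD44+/ESA+ cells of 3 lines was hybridised to 6 arrays of 1 colour. The authors deposited log2 expression values per transcript cluster. Per the submitters' processing notes these came from Affymetrix Expression Console by RMA. RMA makes the arrays' distributions alike, which would hide a shift in the RNA content of the cells. The genome build of the array's annotation is not stated in what was used here. The table holds 33297 clusters, and 21214 have at least 1 symbol in the platform annotation, which are the named clusters. Some of these carry several symbols, while the members come only from clusters with exactly 1. For a symbol with several clusters (7 members), the cluster of highest mean across the 6 arrays stands for it.

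limma 3.58.1 in R 4.3.3 was fitted to all named clusters, with a mean per line over all 6 arrays and the default eBayes. Two-sided p-values were adjusted by Benjamini and Hochberg's method across the 21214 clusters, with a threshold of 0.05. Results are given with SE or 95% intervals, and the number of arrays limits their precision, as there are no counts. No filter on dim clusters was used.

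The members, gene lists and the rule for named genes were chosen with earlier results of these data known. Every called member was named, with the largest rise and fall of each complex, the tissue-restricted forms, the SDH genes and up to 4 called genes of each other list. The division of complexes by role, the motif searches, the sequences printed, the neighbouring genes and the genes plotted array by array were chosen after values had been seen.

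In all, 14 other settings were tried: each of the 6 arrays left out, a replicate block, the block crossed, another normalization, trend and robust options, the dimmest clusters left out, clusters with no symbol tested too, the mean of a symbol's clusters, and only the 4 arrays compared.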

Additional observations from a re-analysis of the deposited data

Results flagged for a closer look

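In 6 subunit genes the mean changes of the derivatives against MDA-MB-231 had opposite signs, at least 1 of them was called, and the difference between them was called too. The opposite sign rests in each on a value near 0 or without a call, and 0 members were called in opposite directions in the derivatives against MDA-MB-231. In 231BrM-2a against MDA-MB-231, UQCRC2 had 0.03 (95% interval -0.22 to 0.27), ATP5PO 0.01 (-0.21 to 0.24), ATP5PB 0.03 (-0.22 to 0.28) and NDUFB1 0.04 (-0.23 to 0.31). In 231BoM-1833 against MDA-MB-231, NDUFA11 had -0.14 (limma adjusted p = 0.395) and NDUFB2 -0.10 (0.653). The value given is the change in 231BrM-2a against MDA-MB-231 minus that in 231BoM-1833, which equals the difference between the derivatives, tested by limma. For UQCRC2, a core protein of complex III, it was 0.48 (adjusted p = 0.0118). For the peripheral stalk genes ATP5PO and ATP5PB it was 0.49 and 0.46 (adjusted p = 0.00704 and 0.0165). For the complex I membrane-arm genes NDUFA11, NDUFB2 and NDUFB1 it was 0.77, 0.68 and 0.47 (adjusted p = 0.000704, 0.00598 and 0.0199). NDUFA11 kept this difference whichever array was left out. UQCRC2, ATP5PO and NDUFB2 lost it without 231BrM-2a replicate 2 (adjusted p = 0.101, 0.0573 and 0.0547), and ATP5PB and NDUFB1 lost it without 231BrM-2a replicate 1 or 231BoM-1833 replicate 2 (up to 0.119 and 0.15).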

How the results depend on the processing

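No call turned its direction under any of the settings run, while the medians of complexes IV and V changed sign in some. With clusters that carry no symbol tested too, fewer members were called, 11 in 231BrM-2a against MDA-MB-231 (1 lower), 7 in 231BoM-1833 against MDA-MB-231 (2 higher, 5 lower) and 10 in 231BrM-2a against 231BoM-1833 (8 higher, 2 lower). The same setting left 1 assembly factor, 4 carriers and 9 ribosomal genes called in the first comparison, 1 citric acid cycle gene, 2 ribosomal genes, 3 regulators and 1 tissue-restricted form in the second, and 0 core subunits of complex I in the third (by limma, where 2 had an unadjusted p under 0.05 and trend and robust options called 2). The labels do not say whether a replicate number marks a shared day. The same-number correlations of deviations between lines were 0.0362, -0.162 and -0.165, which with 2 arrays per line cannot decide it. With the replicate block, 9 members were called in 231BoM-1833 against MDA-MB-231 (3 higher), 15 in 231BrM-2a against MDA-MB-231 (1 lower) and 17 between the derivatives, with 1 citric acid cycle gene, 5 ribosomal genes and 1 tissue-restricted form in the bone-line comparison. The block with crossed numbers, added after seeing the data, gave 22, 20 and 22 calls in 231BrM-2a against MDA-MB-231, 231BoM-1833 against MDA-MB-231 and between the derivatives, 11 of them higher in the bone-line comparison.

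With the dimmest clusters left out, 11 members were higher in 231BoM-1833 against MDA-MB-231 and their median was 0.14, the complex IV median in 231BrM-2a against MDA-MB-231 was 0.26, and 2 core subunits of complex I (between the derivatives), 13 ribosomal genes and 1 tissue-restricted form (in the bone line) and 0 in the brain line were called by limma (where 2 had an unadjusted p under 0.05 in the main fit and trend and robust options called 1). With trend and robust options the first, core and ribosomal counts were likewise 11, 2 and 13. With only the 4 arrays compared, 1 citric acid cycle gene, 5 ribosomal genes and 1 tissue-restricted form were called in the bone line, 6 regulators in the brain line, and 0 core subunits between the derivatives. The mean of a symbol's clusters gave 5 regulators in the brain line. Quantile normalization gave a complex V median of -0.091 and 1 tissue-restricted form in the bone line.

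Leaving out each array in turn gave these ranges, for which fewer arrays are one difference in construction. In 231BrM-2a against MDA-MB-231, 6 to 19 members were called (5 to 17 higher, 1 to 2 lower), with medians of 0.082 to 0.22 for complex I and 0.03 to 0.091 for complex V, and 0 to 7 assembly factors, 3 to 7 carriers, 5 to 18 ribosomal genes, 2 to 6 regulators and 1 to 2 tissue-restricted forms. In 231BoM-1833 against MDA-MB-231, 2 to 12 were called (1 to 6 higher, 1 to 8 lower), with medians of 0.021 to 0.12 for all members, 0.047 to 0.15 for complex I, 0.074 to 0.3 for complex IV and -0.086 to 0.035 for complex V, and 2 to 8 assembly factors, 0 to 2 citric acid cycle genes, 1 to 2 carriers, 1 to 9 ribosomal genes, 2 to 5 regulators and 1 to 2 tissue-restricted forms. Between the derivatives, 6 to 17 were called (4 to 14 higher, 1 to 4 lower), with medians of 0.03 to 0.14 for all members, 0.007 to 0.14 for complex I, -0.091 to 0.13 for complex IV and 0.04 to 0.17 for complex V, and 4 to 10 assembly factors, 0 to 1 core subunits, 6 to 16 ribosomal genes and 2 to 5 regulators. Otherwise the causes were not tested. With 2 arrays per line, differences of about the size of the smaller calls are lost when 1 array is left out, and signal over background is unknown.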
